A study of Mus musculus with 21 samples.

Results

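Of 45281 probes on a mouse bead array, 90 stood out in cultures of adult tail tip fibroblasts among the 7 kinds of culture in the study. They are called restricted to these cultures below, for a margin of at least 16-fold and not for absence elsewhere. They were chosen from the measured signal. A probe was kept if it was detected (detection p under 0.01) on all 3 fibroblast arrays and if its mean log2 signal there was at least 4 (16-fold) above the mean of each of the 6 other groups, after quantile normalization. Of the 14430 probes detected on all 3 fibroblast arrays, these 90 met the second condition. The high fibroblast signal is therefore the way the probes were found and is described without a test. Tests are given only for differences among the 6 other groups.

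Total RNA was hybridised to 21 one-colour Illumina arrays, 3 for each of 7 groups. The embryonic stem (ES) line αPIG D3 and the line αPIG TiB7.4 of induced pluripotent stem (iPS) cells, both from mouse, were each studied as undifferentiated cells, as whole embryoid bodies (EB, aggregates in which the cells differentiate spontaneously) and as cardiomyocytes (CM). Each line carries the αPIG construct, in which the α-MHC promoter, active in heart muscle cells, drives puromycin resistance and green fluorescent protein. EB and CM were taken on day 16, the CM after 8 µg/ml puromycin from day 9 and the EB untreated from the same batches. Undifferentiated cells grew with LIF on mitomycin-inactivated embryonic fibroblast feeders, so RNA of the stem cells and of any feeder cells left among them cannot be told apart in the ES and iPS samples. The passages were 7, 9 and 10 for ES cells and the EB and CM made from them, and 5, 7 and 8 for the iPS line. The fibroblasts were primary tail tip cultures from F1 mice of 129Sv and C57BL6 aged 8 weeks. The labels give their arrays passages 2, 3 and 4, whereas the design text calls them technical replicates of single RNA, so their spread may hold no spread between cultures. Each line is 1 reporter line, so a difference between the lines cannot be told apart from a difference between these particular clones.

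Fibroblasts build and remodel the extracellular matrix. They secrete fibrillar collagens, cross-link them with lysyl oxidase and cut them with collagenases such as matrix metalloproteinase 13. Tissue macrophages live among them in the dermis. These cells carry Adgre1 (the F4/80 antigen) and Cd14, secrete lysozyme, and are a main source of complement C1q and of inflammatory chemokines and cytokines such as tumour necrosis factor.

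The array annotation gave a gene to 84 of the 90 probes, which stand for 72 genes. It gave none to the other 6. Sorted by what the genes are known to do, the largest class was not matrix. It was formed by 29 probes of genes of macrophages and other myeloid cells, among them Lyz1 and Lyz2 (lysozymes), C1qb and C1qc (complement), Adgre1, Cd14, Trem2, Tyrobp, Fcer1g, Mpeg1, Ms4a6d and Ms4a7. A further 19 probes belonged to genes of matrix structure or turnover, such as Col1a1, Col1a2, Col5a1, Col6a2, Lox, Mmp13 and Ctsk (a collagen-cutting protease). Chemokines and cytokines had 16 probes (Ccl3, Ccl4, Ccl7, Ccl9, Ccl12, Cxcl2, Cxcl14, Pf4, Ppbp, Il1b and Tnf). Other secreted factors had 6, and 14 probes fell in none of these classes, among them both member probes of Xist. Further Xist probes on the array did not meet the rule. The classes were assigned after the members were known and carry no test.

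The label "fibroblast" was checked against marker lists. All 10 fibroblast markers on the array were detected on all 3 fibroblast arrays, and 9 of them were highest there. Of 7 measured markers of macrophages and blood, 5 were also detected on all 3 fibroblast arrays and highest there. On the background-corrected log2 scale used for all levels below, on which a probe with no signal lies just above 4, Csf1r (the receptor for the macrophage growth factor) read 8.44, 8.67 and 9.60 on fibroblast arrays 1 to 3. Ptprc (CD45, carried by all white blood cells) was at 4.90, 5.05 and 5.30. Lyz2, Adgre1 and Cd14, which are members, read above 10 on each of them. The embryonic globins Hbb-bh1 and Hba-x were not detected there. The median of this list was 8.44, 8.67 and 9.60 on the fibroblast arrays, against 4.14 to 4.15 in ES cells and 4.17 to 4.23 in iPS CM. The part of macrophages in the signal of any one member was not tested. The probes are therefore called restricted to the fibroblast cultures, not to fibroblasts, and in bulk RNA fewer cells of a type and less RNA per cell cannot be told apart.

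Of the 72 member genes, 12 lay on chromosome 11, among them the Ccl genes named below. The share of all genes on that chromosome is not given here, so the count has no background. Some member genes were close neighbours. By gene order in RefSeq, 12 genes fell into 5 runs in which members lay within 5 genes of each other. These were Lyz1 with Lyz2, C1qb with C1qc, Ccl7 with Ccl12, Ccl3 with Ccl4 and Ccl9, and Ppbp with Pf4 and Cxcl2. Lyz1 and Lyz2, Ccl3 and Ccl4, Pf4 and Ppbp, and Lilrb4a and its relatives have similar sequences, so their probes may share signal. Ugt1a10 shares exons with other Ugt1a transcripts.

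RefSeq promoters (GRCm38.p6, 250 bases before to 50 after the start) were listed for 52 of the 72 genes. They were searched on both strands for 3 motifs: GAGGAAG, which holds the GGAA core bound by the myeloid factor PU.1, TGANTCA, the AP-1 site, and TATAAA, the TATA box. None of the motifs is contained in another. GAGGAAG was found in 14 of the 52 (26.9%), against 13.5% of all 27025 listed promoters. By class, 7 of the 16 myeloid, 3 of the 9 chemokine and cytokine and 3 of the 14 matrix promoters held it. TATAAA was found in 14 of the 52, against 14.2% of all. It was in 5 of the 9 chemokine and cytokine, 4 of the 14 matrix and 1 of the 16 myeloid promoters. TGANTCA was found in 6 of the 52, against 7.93% of all. A match is a description of letters and not a bound site. The promoters of 2 myeloid and 2 matrix turnover members whose levels are followed below are printed 5′ to 3′ on the gene's strand, with matches in capitals. Lyz2 (chr10:117282223-117282522, minus strand) holds none of the 3 motifs. C1qc (chr4:136892865-136893164, minus strand) has GAGGAAG on the opposite strand, read as CTTCCTC. Mmp13 (chr9:7272264-7272563, plus strand) has TGANTCA followed by TATAAA close to its start. Ctsk (chr3:95498960-95499259, plus strand) has GAGGAAG on each strand.
Lyz2: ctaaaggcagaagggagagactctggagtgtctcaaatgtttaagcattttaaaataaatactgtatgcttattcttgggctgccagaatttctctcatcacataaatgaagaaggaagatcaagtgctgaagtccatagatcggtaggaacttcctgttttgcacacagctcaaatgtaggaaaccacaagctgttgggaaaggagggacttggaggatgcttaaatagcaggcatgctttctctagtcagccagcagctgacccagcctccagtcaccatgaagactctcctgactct
C1qc: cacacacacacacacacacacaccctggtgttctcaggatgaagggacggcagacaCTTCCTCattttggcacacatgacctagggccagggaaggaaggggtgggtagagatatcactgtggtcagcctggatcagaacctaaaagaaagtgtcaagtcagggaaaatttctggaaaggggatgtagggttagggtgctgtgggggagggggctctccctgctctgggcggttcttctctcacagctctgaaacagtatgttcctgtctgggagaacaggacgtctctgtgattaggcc
Mmp13: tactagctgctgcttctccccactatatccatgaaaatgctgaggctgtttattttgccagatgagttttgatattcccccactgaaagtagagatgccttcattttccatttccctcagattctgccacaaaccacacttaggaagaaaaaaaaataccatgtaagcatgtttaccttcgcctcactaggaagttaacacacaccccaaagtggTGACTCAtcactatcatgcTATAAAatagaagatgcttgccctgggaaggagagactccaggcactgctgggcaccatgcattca
Ctsk: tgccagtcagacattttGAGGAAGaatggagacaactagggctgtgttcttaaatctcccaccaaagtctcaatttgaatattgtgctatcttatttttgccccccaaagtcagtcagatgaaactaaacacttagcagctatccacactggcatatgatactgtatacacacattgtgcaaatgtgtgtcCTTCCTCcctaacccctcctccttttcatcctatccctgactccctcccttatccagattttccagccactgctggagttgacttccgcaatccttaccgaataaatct

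Fibroblast means of the members ran from 8.97 to 14.11, with a median of 10.26. The brightest members were Lyz1 (14.11), Lox (13.82), Serpinf1 (13.73, an anti-angiogenic serpin of connective tissue), Lyz2 (13.60 for ILMN_1252076), Mmp13 (12.88), Col5a1 (12.75) and Ccl4 (12.68 for ILMN_1223257). Lyz1 values are those of its member probe, ILMN_2878071, unless another is named. The Lyz1 probes ILMN_1247933 and ILMN_2736867, which are not members, read only 5.67 and 5.38 in fibroblasts. On the scale of the selection, the margin over the next group ran from 4.02 to 6.91 (120-fold), with a median of 4.62. The widest margins were those of an unnamed probe, ILMN_2668333, of Cxcl2 (6.88 for ILMN_2778289, a chemokine that draws neutrophils), of Fcer1g (6.18, a signalling chain of Fc receptors) and of Ccn5 (6.14, a secreted matricellular protein). Just inside the threshold lay Fxyd5, Smpdl3a, Fcgr2b, Cyth4 and Serpinf1, at 4.02 to 4.06. Just outside lay Cxcl1 (3.98), Wfdc17 (3.97), Hpgd (3.95), Itga11 (3.95) and a second Fcrls probe (3.94). The array has 51 further probes for the member genes. Of these, 37 were detected on all 3 fibroblast arrays, and 36 of the 37 were highest in fibroblasts. The exception was a Serpinf1 probe at 4.82 in fibroblasts and 4.88 in iPS cells. The other 14 were not detected on all 3 arrays, and some of them, of Fcgr2b, Ms4a7 and Ugt1a10, were highest in another group. Several of the 36 were far dimmer than the member probe of their gene. Examples are Cemip (4.81 for ILMN_1216436 against 10.98) and Mmp13 (5.53 for ILMN_2799267 against 12.88).

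In a group where a probe is not detected on any array, its fold has only a lower limit. To set it, each array of the dim group was given the lowest signal of a detected probe on that array, or the member's own signal if that was higher, and their mean was taken from the fibroblast mean. Over 345 pairs of a member and a group with no detection, the limits ran from 17.3-fold to 545-fold, with a median of 41.2-fold. Lox was at least 545-fold higher in the fibroblast cultures than in iPS CM and at least 524-fold higher than in ES CM. Lyz2 (ILMN_1252076) was at least 429-fold higher than in ES cells. These are descriptions of how the probes were chosen.

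Outside the fibroblast cultures, 14 members were detected on no array: Tnf and Rgs1 with all their member probes, 1 Cxcl2 probe, Il1b, Clec4d, Cd72, Col1a2, Abi3bp, Svep1 and 2 unnamed probes. The rest were detected unevenly. At least 1 array detected 57 members in ES EB, 48 in iPS cells, 43 in iPS EB, 31 in ES cells, 7 in iPS CM and 9 in ES CM. On all 3 arrays, the counts were 40 in ES EB, 32 in iPS cells, 15 in ES cells, 12 in iPS EB, 4 in iPS CM and 5 in ES CM. The group next to fibroblasts differed by class. For 25 of the 29 myeloid probes it was ES EB, and for 12 of the 19 matrix probes it was undifferentiated iPS cells. These counts include members detected on no array outside the fibroblasts, such as Cd72 and Col1a2, whose next group differs little from the others. No share over all probes stands beside them. Lyz1, Col5a1 and 1 unnamed probe were detected on all CM arrays of both lines. Col5a1, a chain of the type V collagen that nucleates fibrils, read 5.72, 5.99 and 5.65 in ES CM. In iPS CM it read 5.93, 6.84 and 6.90.

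By array, 19 to 23 of the 29 myeloid probes were detected in ES EB, and at most 4 on any array of ES cells, ES CM, iPS cells or iPS CM. Of the 19 matrix probes, 10 to 13 were detected in ES cells, 15 or 16 in iPS cells, 10 or 11 in ES EB, 7 to 10 in iPS EB and at most 3 in CM. The median level of the myeloid probes was 5.15, 4.88 and 4.93 in ES EB and 4.20, 4.21 and 4.60 in iPS EB, against 10.16, 10.17 and 10.33 in fibroblasts.

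Among the other arrays, single arrays stood apart from the other 2 of their group. Replicate 1 of the iPS cells had the highest value of the 3 for 17 of the 19 matrix probes, and 70 of all 90 members, where 34.3% of all tested probes had theirs on it. Its matrix median was 7.06, against 5.64 and 5.79 on the others. Xist, the RNA that silences an X chromosome, read 6.00, 4.54 and 4.69 on iPS replicates 1 to 3 (ILMN_2475156), and the fibroblast marker list had a median of 6.90, 5.70 and 5.83 there. Replicate 3 of the iPS EB had 17 of the 29 myeloid probes detected, against 1 on each of the other 2. Their part in the results was not tested beyond leaving those arrays out, and the counts without them are given below.

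The first comparison asked how the members changed when undifferentiated ES cells formed EB. Many of the myeloid probes rose. Every member entered the tests through its detection on the 3 fibroblast arrays, and 64 of the 90 were detected on any array of ES cells or ES EB. A probe with no signal in either group has little chance of a call, so counts out of 90 below are not on the same footing as the background of all tested probes. Of all 90 members, 28 were called higher in ES EB and 7 lower by limma at a Benjamini-Hochberg adjusted p under 0.05, over a background of 16.6% and 16.7% of the 21047 tested probes. Of the 29 myeloid probes, 19 were called higher and none lower, with a median change of 0.61. Those not called included both Adgre1 probes, Fcer1g, Cd72, Clec4d, Evi2a, P2ry6 and Fcgr2b. The chemokine and cytokine class had 5 of 16 higher and 1 lower. For 23 of the 28 that were higher, no ES array had detected the probe, and for 1 of them neither group had.

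Lyz2 (ILMN_1252076) read 4.14, 4.15 and 4.40 in ES cells, 7.30, 7.41 and 7.84 in ES EB and 5.26, 5.31 and 5.19 in ES CM. The iPS cells gave 5.69, 4.23 and 4.40, their EB 4.18, 4.13 and 4.57, and their CM 4.43, 4.17 and 4.20. All 3 ES EB arrays lay above every other array outside the fibroblasts. The rise from ES cells to ES EB was at least 6.35-fold (limma, adjusted p = 1.8e-07). The second member probe, ILMN_2939681, rose at least 2.71-fold (adjusted p = 6.1e-07). Lyz1, the close copy expressed in the gut as well, read 4.21, 5.04 and 5.83 in ES cells and 9.99, 9.70 and 10.10 in ES EB, a log2 change of 4.91 ± 0.50 (SE, adjusted p = 1.6e-06).

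C1qb, a chain of C1q, which starts the classical complement pathway, read 4.09, 4.15 and 4.17 in ES cells and 6.95, 6.53 and 6.49 in ES EB. In ES CM it was at 4.15, 4.14 and 4.21. The iPS EB arrays gave 4.40, 4.32 and 5.32, and 1 of them detected it. The rise to ES EB was at least 3.49-fold (limma, adjusted p = 8.7e-08). C1qc, its neighbour, rose at least 2.15-fold (adjusted p = 3.1e-07), and Ms4a6d, a membrane protein of macrophages, at least 3.32-fold (adjusted p = 1.1e-08). The groups did not overlap for any of these 3 genes.

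Ccl4, a chemokine that draws monocytes and lymphocytes, read 4.17, 4.13 and 4.14 in ES cells, 7.09, 7.35 and 7.21 in ES EB and 4.14, 4.18 and 4.18 in ES CM on the brighter of its probes (ILMN_1223257). In iPS EB it was at 4.24, 4.74 and 5.27. It rose at least 5.16-fold from ES cells to ES EB (limma, adjusted p = 4.3e-08). Ccl3, its neighbour, read 5.20, 5.44 and 5.82 in ES EB and at most 4.42 on every other array outside the fibroblasts. It rose at least 1.55-fold (adjusted p = 8.4e-07). Tnf and Il1b, cytokines of activated macrophages, were detected on none of the 18 arrays, and Cxcl2 on no ES EB array.

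Adgre1 showed how close to the limit some of these values lay. Its probe ILMN_1216880 read 4.94, 4.27 and 4.25 in ES EB, detected on 1 array of the 3, and 10.18, 10.30 and 10.62 in fibroblasts. Of the 7 measured macrophage and blood markers, 6 were tested and 2 were called higher in ES EB than in ES cells. The list's median was 4.94, 4.47 and 4.25 in ES EB, against at most 4.15 in ES cells. Ptprc was not detected on any ES EB array.

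The matrix class behaved otherwise. Of its 19 probes, 4 were called higher and 4 lower in ES EB than in ES cells. Lox, the collagen cross-linking enzyme, read 6.93, 7.26 and 6.98 in ES cells and 4.47, 4.19 and 4.19 in ES EB, a fall by 2.77 ± 0.38 on the log2 scale (limma, adjusted p = 3.2e-05). Mmp13 (collagenase) read 5.48, 5.84 and 6.92 in ES cells and 4.32, 4.26 and 4.35 in ES EB, where no array detected it, so it was at least 2.94-fold lower (adjusted p = 0.00013). Ccn5 and Mfap5 (a protein of elastic microfibrils) fell too. So did Ccl7, a monocyte chemokine also made by fibroblasts, by 1.42 ± 0.33 (adjusted p = 0.0031). With arrays scaled to a common median, the calls of Ccl7 (adjusted p = 0.21) and Mfap5 (adjusted p = 0.23) were lost. The other direction was taken by Serpinf1, at 7.67, 8.07 and 8.08 in ES cells and 9.25, 9.82 and 9.92 in ES EB, a rise of 1.72 ± 0.42 (adjusted p = 0.0046).

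In the iPS line, 1 member was called higher in EB than in undifferentiated cells and 30 lower, over a background of 18.8% and 18.7% (37.6% in either direction), with 64 of the 90 detected on any array of these groups. The 1 that was higher is the unnamed probe ILMN_2717496, by 0.35 ± 0.12 (limma, adjusted p = 0.03). None of the 29 myeloid probes rose and 1, Lyz1, fell, with groups that overlapped, and no call without iPS replicate 1 or under scaling to a common median. Of the 19 matrix probes, 11 fell, 9 of them without iPS replicate 1. Of the class with no common role, 9 of 14 fell.

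Mmp13 read 8.55, 7.49 and 7.65 in iPS cells and 4.38, 4.26 and 4.30 in iPS EB. No iPS EB array detected it, and it was at least 10.4-fold lower (limma, adjusted p = 1.1e-07). Ccl7 read 9.04, 7.14 and 7.57 in iPS cells and 4.20, 4.19 and 4.42 in iPS EB, at least 10.5-fold lower (adjusted p = 4.7e-07). Lox read 9.22, 6.99 and 7.01, then 4.32, 4.37 and 4.58, and fell by 3.32 ± 0.38 on the log2 scale (adjusted p = 5.1e-06). In each of the 3, replicate 1 was the highest of the iPS arrays and the groups did not overlap. Ctsk, at 7.39, 6.25 and 6.16 in iPS cells, was at least 4.22-fold lower in iPS EB (adjusted p = 4.7e-06). Thbs2, a matricellular protein, fell by 2.22 ± 0.29 (adjusted p = 2.2e-05) and Aebp1, a collagen-binding secreted protein, by 1.97 ± 0.24 (adjusted p = 8.9e-06). Col1a1, the main chain of type I collagen, read 7.98, 6.08 and 6.27 in iPS cells and 4.68, 4.52 and 5.83 in iPS EB (adjusted p = 0.0018). In ES EB it was at 7.03, 6.42 and 6.71.

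Whether the change to EB differed between the lines was tested as a difference of changes in the same model. For 32 members the change was lower in the iPS line, and for none was it higher, over a background of 3.73% and 3.12% (6.85% in either direction), with 76 of the 90 detected on any array of the groups involved. They comprised 13 of 29 myeloid, 9 of 19 matrix and 6 of 16 chemokine or cytokine probes. The Lyz1 change was lower by 6.60 ± 0.70 on the log2 scale (limma, adjusted p = 3.1e-05). For Lyz2 (ILMN_1252076) the value was -3.77 ± 0.38 (adjusted p = 2.1e-05), for Ccl4 (ILMN_1223257) -2.87 ± 0.31 (adjusted p = 3.4e-05), for Col1a1 -2.81 ± 0.55 (adjusted p = 0.0052) and for Thbs2 -2.27 ± 0.42 (adjusted p = 0.0033). For the myeloid class the number was 11 without iPS replicate 1 and 13 without iPS EB replicate 3. Under scaling to a common median the total was 17, with 10 myeloid and 3 matrix probes.

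The lines were also compared at each stage. In undifferentiated cells, 20 members were called higher in iPS than in ES cells and 3 lower, over a background of 9.47% and 10.1% (19.6% in either direction), with 50 of the 90 detected in either. The matrix class had 7 of 19 higher and 1 lower. Mmp13 was higher in iPS cells by 1.82 ± 0.28 on the log2 scale (limma, adjusted p = 0.00021) and Ctsk by 1.87 ± 0.25 (adjusted p = 6.5e-05). Ctsk was detected on 1 ES array of the 3 and on all iPS arrays, and the groups did not overlap. The lower ones were Mfap5 and the myeloid genes Cyth4 and Fcgr2b (an inhibitory Fc receptor), the last at 4.68, 5.11 and 4.77 in ES cells and detected on no iPS array. The total of 23 fell to 18 without iPS replicate 1, with 5 matrix probes in place of 8. It was 6 under scaling to a common median and 6 with only ES and iPS cells in the fit.

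In EB, 31 members were called lower in the iPS than in the ES line and 2 higher, over a background of 12.9% and 12.8% (25.7% in either direction), with 61 of the 90 detected in either. Of the 29 myeloid probes, 20 were lower, and 21 without iPS EB replicate 3. Lyz1 was lower by 4.38 ± 0.50 on the log2 scale (limma, adjusted p = 7.8e-06), at 4.85, 5.05 and 6.77 in iPS EB. Ms4a6d was lower by 2.07 ± 0.14 (adjusted p = 1.6e-08), at 6.80, 6.24 and 6.70 in ES EB and 4.40, 4.37 and 4.78 in iPS EB. The 2 that were higher were Slpi, a secreted protease inhibitor, at 4.70, 4.86 and 5.57 against 4.19, 4.17 and 4.26 (at least 1.44-fold, adjusted p = 0.001), and Dio3, the enzyme that inactivates thyroid hormone, by 0.32 ± 0.11 (adjusted p = 0.035). Col5a1 was close in the EB of the lines, at 8.30, 8.26 and 8.51 in ES EB and 8.39, 7.88 and 9.28 in iPS EB.

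Puromycin-selected CM held little signal of these probes. Against ES EB, 46 members were called lower in ES CM and none higher, over a background of 31% and 31.3% (62.3% in either direction), with 58 of the 90 detected in either. Of the 29 myeloid probes, 23 were lower. For 40 of the 46 no ES CM array detected the probe. Serpinf1 read 4.20, 4.43 and 4.45 in ES CM and was at least 29.4-fold lower than in ES EB (limma, adjusted p = 8.9e-09). Ms4a6d was at least 3.47-fold lower (adjusted p = 1.2e-10) and Col1a1 at least 3.82-fold (adjusted p = 2.5e-05). The lysozymes fell too. Lyz1 read 7.49, 7.56 and 7.65 in ES CM and was lower than in ES EB by 2.37 ± 0.50 (adjusted p = 0.00051), and Lyz2 by 2.26 ± 0.27 (ILMN_1252076, adjusted p = 1.2e-06). Lyz1 stayed higher than in undifferentiated ES cells by 2.54 ± 0.50 (adjusted p = 0.00022). Lyz2 (ILMN_1252076) was detected on all 3 ES CM arrays too, at least 1.32-fold above ES cells (adjusted p = 0.0028). C1qb, C1qc, Adgre1 and Cd14 were not detected on any ES CM array.

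Against iPS EB, 17 members were called lower in iPS CM and none higher, over a background of 29.6% and 28.5% (58.1% in either direction), with 43 of the 90 detected in either. Without iPS EB replicate 3 there were 7, none of them myeloid. Serpinf1 read 8.50, 7.61 and 9.46 in iPS EB. In iPS CM it read 4.25, 4.25 and 4.17 and was at least 13.9-fold lower (limma, adjusted p = 1.4e-07). For 24 members the lines differed in the change from EB to CM, 23 of them with a lower value in the ES line, over a background of 6.99% in that direction and 6.66% in the other (13.6% in either), with 62 of the 90 detected in any of the groups involved. The 23 held 17 of the 29 myeloid probes, with a difference of 2.09 ± 0.19 for Ms4a6d (adjusted p = 4e-06) and 1.95 ± 0.27 for C1qb (adjusted p = 0.00018). Under scaling to a common median there were 14 in all, 9 of them myeloid. Slpi alone differed in the other direction. This comparison and the change to EB share the EB samples. Ms4a6d and C1qb were detected on no CM array of either line. For such probes the difference mostly repeats that between the EB of the lines (-2.07 for Ms4a6d and -1.97 for C1qb). It is not a separate result for them.

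Against the undifferentiated cells, ES CM had 4 members higher and 19 lower, over a background of 33.2% and 33% (66.2% in either direction), with 35 of the 90 detected in either. Under scaling to a common median the total of 23 was 15. In iPS CM none was higher and 40 were lower, over 32.7% and 33.6% (66.3%), with 48 of the 90 detected in either. Matrix probes made up 10 of the 19 and 14 of the 40. In iPS CM, Thbs2 was at least 6.90-fold lower than in iPS cells (limma, adjusted p = 2.2e-08) and Lox at least 8.05-fold (adjusted p = 2e-07). Between the CM of the lines, 4 members were called lower in iPS CM and 1 higher, over a background of 11.8% and 11.4%. The lower ones were Lyz1 (by 1.90 ± 0.50, adjusted p = 0.01), Lyz2 (ILMN_1252076), Col6a2 and Fam20a (a secreted partner of a kinase). The second Lyz2 member probe, ILMN_2939681, was not called (adjusted p = 0.09). Fam20a was detected on 1 ES CM array and on no iPS CM array. The higher one was Cavin3 (a coat protein of caveolae), at 5.12, 4.98 and 5.33 against 4.27, 4.30 and 4.24 (at least 1.28-fold, adjusted p = 0.019). The total of 5 was 1 under scaling to a common median and 2 without any one of ES CM replicates 2 and 3 and iPS CM replicate 3. At least 1 CM array detected 10 members in all, which limits what could be called.

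Genes of the same pathways were followed through lists drawn up with earlier results of these data known. The lists hold members as well as genes that did not meet the rule, so their counts partly repeat member calls. Of 17 genes of matrix turnover, 15 were measured and 14 tested, and 4 are member genes (Mmp13, Lox, Ctsk and Serpinf1). In that list 7 were called higher in iPS than in ES cells and none lower, over a background of 9.47% and 10.1% of tested probes. Against iPS cells, 8 were lower and 1 higher in iPS EB, over 18.7% and 18.8%, and 10 were lower and none higher in iPS CM, over 33.6% and 32.7%. Mmp3 (stromelysin) had means of 7.46 in ES cells, 9.87 in iPS cells and 11.54 in fibroblasts, and was detected on no EB or CM array (ILMN_2899041). Of 19 chemokines and cytokines, 18 were measured and 16 tested, and 4 are member genes (Ccl7, Ccl9, Cxcl2 and Cxcl14). In that list 2 rose and 2 fell in ES EB against ES cells, over 16.6% and 16.7%, and 7 fell and none rose in iPS EB against iPS cells, over 18.7% and 18.8%. Cxcl1, just outside the threshold, had means of 7.66 in ES cells, 9.13 in iPS cells and 13.13 in fibroblasts.

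Likeness to 1 member of each kind was measured as the Pearson correlation of log2 values over the 18 arrays outside the fibroblasts, across 20005 probes, as a description. These arrays share group structure, so r is high wherever groups are in the same order. Lyz2 (ILMN_1252076) was most like its other member probe (r = 0.971) and Lyz1 (0.937), then Prl2c4 (0.931), Prl2c3 (0.924) and Fam180a (0.923). Mmp13 was most like the probes of Mmp3 (0.988 and 0.984), an unnamed probe and Cxcl1 (0.980).

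The 3 fibroblast arrays were not alike. Over all tested probes, arrays 1 and 2 correlated at 0.996, and array 3, labelled passage 4, at 0.975 and 0.977 with them. No member differed by more than 1 on the log2 scale between arrays 1 and 2. On array 3, 8 members were more than 1 above and 5 more than 1 below the mean of the other 2, 14.4% of members against 3.57% of all tested probes. The rule chose members that are bright on these arrays, whereas the tested probes include dim ones with little room to differ. These shares are therefore not on the same footing, and no conclusion is drawn from their difference. Of the 16 chemokine and cytokine probes, 12 were highest on array 3, and the others were those of Ccl12, Pf4 and Ppbp. Array 3 was also highest for 16 of the 29 myeloid and 10 of the 19 matrix probes, and for 47 of all 90 members. The share over all tested probes is not given here, so these counts have no background beside them. Tnf read 9.11, 8.96 and 11.58 (ILMN_2899863), Cxcl2 10.87, 10.99 and 12.26 (ILMN_2778289), Il1b 8.82, 8.58 and 9.72, and Ccl4 9.62, 9.50 and 10.96 (ILMN_1224472). Ppbp, a chemokine of platelets, read 9.31, 9.45 and 8.68 (ILMN_1228102), and Pf4, its neighbour, 10.03, 9.81 and 9.79. Fcrls, a receptor-like protein of tissue macrophages and microglia, was lower on it, at 11.36, 11.15 and 8.69, as were Ccl12 (10.02, 10.02 and 8.70), Fcgr2b (9.60, 9.59 and 8.56) and Xist (10.16, 10.08 and 8.50 for ILMN_2475156). The matrix class had a median of 11.04, 11.08 and 11.06, and only Col6a2 (9.20, 9.39 and 10.60) and Svep1 (8.62, 8.71 and 9.92) moved by more than 1. As each array has its own passage number, passage and array cannot be told apart, and with 1 array of each no test was made. Without array 3 the rule kept 83 probes.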

How the data were processed

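Per the file headers, the authors deposited for each probe and array an average signal intensity, which the values show to be linear and not normalized, and a detection p-value. The authors also deposited quantile normalized intensity. That table's rows carry other identifiers: matched by value, 45281 rows paired, 3 with the same identifier. With the first table's identifiers, 13 of 13 pluripotency marker probes were highest in the named groups, with the second's 6 of 13, so the first were used. Their software is not named here. Genes came from the platform's annotation, symbols and promoters from RefSeq, matched by gene ID for the 84 named members.

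Levels were computed with limma 3.58.1 in R 4.3.3: neqc (normexp background correction from detection p, offset of 16, quantile normalization, log2). The offset understates changes of dim probes. Probes detected on at least 3 arrays were tested (21047; all 90 members passed, through the 3 fibroblast arrays on which they were selected). One linear model held 19 samples, the 3 fibroblast arrays averaged to 1, with 12 residual degrees of freedom (lmFit, eBayes). Calls used a Benjamini-Hochberg adjusted p under 0.05 within each of 11 comparisons. The fit was also run on simulated data, with known steps between iPS and ES cells and independent normal noise. That simulation holds no arrays that stand apart and no shared passages, so it does not bear on these limits. The fibroblasts entered no test.

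Members, lists and classes were chosen with earlier results of these data known. The named genes are the brightest members, those with the widest and narrowest margins, the largest called changes and the list genes. Others (Tnf, Il1b, Xist, Col6a2 and Svep1 among them) were named after their values were seen. Within a line, same-numbered samples share a passage and, for EB and CM, a batch per the labels. Their deviations correlated between -0.177 and 0.217, with 5 of 18 over 0.1. Alternatives were the background correction, scaling, filter, replicate block, samples in the fit, variance prior and each replicate left out.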

Additional observations from a re-analysis of the deposited data

Results flagged for a closer look

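The change from undifferentiated cells to EB differed between the ES and the iPS line for 32 members, by the test of the difference in the linear model. In all 32 the change was lower in the iPS line. For 24 members the lines differed in the change from EB to CM. The EB samples enter both, and iPS EB replicate 3, with 42 members detected against 21 and 13 on the other 2, is among them. For members detected on no CM array, the difference in the change from EB to CM mostly repeats that between the EB of the lines.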

How the results depend on the processing

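Scaling arrays to a common median, with no quantile step, put the median log2 change of all tested probes from undifferentiated cells to EB at 0.253 for ES and 0.247 for iPS cells. It changed the number of members called to 6 for iPS against ES cells, 15 for ES CM against ES cells, 1 for iPS CM against ES CM, 17 for the difference of change to EB and 14 for that from EB to CM. With only the compared groups in the fit there were 6 for iPS against ES cells and 19 for the difference of change to EB. Without the filter on dim probes there were 9 for iPS CM against iPS EB and 2 for iPS CM against ES CM. The cause was not tested. The authors' normalized table held the same values as the fit without background correction, to within 2.6e-08 on the log2 scale. Its equal counts therefore add no check. With the replicate block, 30 members were called for iPS EB against iPS cells and 14 for iPS CM against iPS EB, and the block moved no count by more than 1.5 times.

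Leaving out each replicate in turn gave counts of 21 to 25 (ES CM against ES), 40 to 45 (ES CM against ES EB), 30 to 33 (ES EB against ES), 18 to 29 (iPS against ES), 2 to 4 (iPS CM against ES CM). It gave 31 to 44 (iPS CM against iPS), 7 to 19 (iPS CM against iPS EB), 28 to 33 (iPS EB against ES EB), 24 to 33 (iPS EB against iPS). The differences of change gave 24 to 35 (to EB) and 17 to 25 (EB to CM), and leaving out a fibroblast array left 83 to 91 members. Without iPS EB replicate 3 the count for iPS CM against iPS EB was 7, and without ES CM replicate 2, ES CM replicate 3 or iPS CM replicate 3 that for iPS CM against ES CM was 2. The rule found 234 probes at a margin of 3, 24 at a margin of 5, 154 with median scaling and 38 when the lowest fibroblast array had to lie 4 above the highest other array. For 82 changes of single members, each under the alternatives run for its comparison, 1207 values kept direction and call, 79 kept the direction but lost the call, and none reversed. The fit without background correction and that on the authors' table are counted separately there, though they use the same values. Signal over background is the limit for most members outside the fibroblasts: where no array of a group detected a probe, only a bound exists.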
